A study of Mus musculus with 16 samples.

Results

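The transcription factors E2f1, E2f2, E2f3, E2f7, E2f8, Mybl2 (B-MYB) and Foxm1, with the pocket protein gene Rbl1 (p107) and the MuvB genes Lin9 and Lin54, were followed in cultured mouse neural progenitor cells. These 10 genes were taken from a named list, not picked by a threshold in the files. They and the lists further on were chosen with earlier results of these data known. Counts set beside the share of all genes are therefore descriptions. Transcripts of 9 of them were present among the 49166 genes that could be named, and all 9 passed the filter on low counts that left 16971 genes for testing; Lin54 was not analysed here. Cells came from cortex of E18.5 mouse embryos, with 4 biological replicates in each of 4 groups. The group KO DHT+ENZ carried a Chd1 knockout and received 10 µM enzalutamide (ENZ, an androgen receptor antagonist) 30 min before 10 nM dihydrotestosterone (DHT, an androgen) for 24 h. KO DHT carried the knockout and received the same DHT without enzalutamide, KO DMSO carried the knockout and received the solvent DMSO, and WT DMSO was the control with DMSO. The knockout was made by a lentivirus that expresses Cas9 and a guide RNA against Chd1, whereas WT cells received a lentivirus with Cas9 and no guide, so Cas9 and 48 h of puromycin selection were common to all 4 groups. The labels describe lentivirus-treated cultures and name no clone, and the embryos were of 2 litters that are not matched to cultures. P-values therefore measure the spread between these cultures. WT cells with DHT, and cells with enzalutamide alone, were not analysed here.

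E2F proteins bind DNA with a DP partner and are held in check by the pocket proteins RB, p107 and p130 until cyclin-dependent kinases phosphorylate these. E2F1, E2F2 and E2F3 are known mainly as activators of genes for entry into S phase, while the atypical members E2F7 and E2F8 act without a DP partner as repressors of the same kind of genes late in the cycle. The MuvB core, which includes LIN9 and LIN54, joins p107 or p130 and repressor E2Fs in the DREAM complex of resting cells, and B-MYB and then FOXM1 in cycling cells to activate genes of G2 and mitosis. In the developing cortex these factors are active in dividing progenitors and are low in neurons.

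Promoter windows of 300 bases, most of them before the annotated gene start, were available from RefSeq on build GRCm38.p6 for 7 of the genes, with 9 windows in all because E2f2 and E2f3 have 2 each. E2F motifs searched on both strands were TTTCCCGC, TTTGGCGC, TTTCGCGC, TTTGCCGC and GGCGGGA, of which GGCGGGA can overlap the reverse of TTTCCCGC. At least 1 of them was found in 12.8% of all 32851 windows, in 11.3% as GGCGGGA. The cell cycle homology motif (CHR), searched as TTTGAA or TTCGAA, was found in 19.2% of all windows, and CCAAT in 37.4%. Among the 9 windows, 6 windows of 5 genes held an E2F motif, 3 windows of 3 genes held a CHR motif and 5 windows of 4 genes held CCAAT. The CHR motif of E2f2 lay only in the window of its downstream start. The transcript there is annotated as processed, not as protein-coding, and held 0.96% of E2f2 counts. The windows of E2f7, Mybl2, Rbl1 and E2f2 are printed because these genes fell in KO DHT+ENZ cultures against both other KO groups in the paired model described further on, and both windows of E2f3 because its RNA from the upstream and the downstream start is compared further on. Capitals mark E2F and CHR matches, and each sequence runs 5′ to 3′ on the strand of its gene.

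E2f7, chr10:110745189-110745488, plus strand: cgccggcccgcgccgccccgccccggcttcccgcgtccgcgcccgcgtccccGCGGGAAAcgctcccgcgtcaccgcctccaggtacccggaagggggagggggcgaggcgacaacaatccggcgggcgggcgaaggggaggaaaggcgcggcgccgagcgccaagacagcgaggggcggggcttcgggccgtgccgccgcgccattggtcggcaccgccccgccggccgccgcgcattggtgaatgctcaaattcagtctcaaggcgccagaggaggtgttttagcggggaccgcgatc

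Mybl2, chr2:163054385-163054684, plus strand: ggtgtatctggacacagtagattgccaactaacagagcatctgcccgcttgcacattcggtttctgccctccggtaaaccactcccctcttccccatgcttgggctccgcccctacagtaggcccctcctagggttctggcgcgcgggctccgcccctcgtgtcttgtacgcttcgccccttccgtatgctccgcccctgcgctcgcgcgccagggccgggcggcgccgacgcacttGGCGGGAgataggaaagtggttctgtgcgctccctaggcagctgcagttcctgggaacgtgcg

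Rbl1, chr2:157204485-157204784, minus strand: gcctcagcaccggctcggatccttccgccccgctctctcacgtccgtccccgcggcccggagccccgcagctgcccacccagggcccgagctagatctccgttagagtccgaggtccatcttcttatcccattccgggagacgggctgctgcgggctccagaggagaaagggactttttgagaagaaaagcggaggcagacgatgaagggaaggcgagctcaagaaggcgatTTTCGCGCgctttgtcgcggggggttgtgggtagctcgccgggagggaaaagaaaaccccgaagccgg

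E2f2 upstream start, chr4:136172024-136172323, plus strand: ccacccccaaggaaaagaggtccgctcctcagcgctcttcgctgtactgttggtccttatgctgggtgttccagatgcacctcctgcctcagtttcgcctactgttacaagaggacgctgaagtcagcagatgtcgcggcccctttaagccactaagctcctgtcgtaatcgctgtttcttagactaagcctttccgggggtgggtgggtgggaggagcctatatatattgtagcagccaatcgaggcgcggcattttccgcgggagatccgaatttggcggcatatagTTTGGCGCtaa

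E2f2 downstream start, chr4:136180532-136180831, plus strand: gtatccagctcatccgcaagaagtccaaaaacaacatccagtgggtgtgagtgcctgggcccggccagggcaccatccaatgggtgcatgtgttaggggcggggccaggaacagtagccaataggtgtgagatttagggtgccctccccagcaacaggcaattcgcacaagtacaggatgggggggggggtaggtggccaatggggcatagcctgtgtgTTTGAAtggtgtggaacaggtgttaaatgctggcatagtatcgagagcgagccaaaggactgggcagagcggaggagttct

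E2f3 upstream start, chr13:29986014-29986313, minus strand: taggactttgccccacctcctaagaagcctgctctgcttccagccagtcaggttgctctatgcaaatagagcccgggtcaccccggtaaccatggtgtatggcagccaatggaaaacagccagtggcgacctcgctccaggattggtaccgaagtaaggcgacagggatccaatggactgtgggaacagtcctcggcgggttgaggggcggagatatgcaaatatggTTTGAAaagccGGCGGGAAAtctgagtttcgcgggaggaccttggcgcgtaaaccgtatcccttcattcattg

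E2f3 downstream start, chr13:29984342-29984641, minus strand: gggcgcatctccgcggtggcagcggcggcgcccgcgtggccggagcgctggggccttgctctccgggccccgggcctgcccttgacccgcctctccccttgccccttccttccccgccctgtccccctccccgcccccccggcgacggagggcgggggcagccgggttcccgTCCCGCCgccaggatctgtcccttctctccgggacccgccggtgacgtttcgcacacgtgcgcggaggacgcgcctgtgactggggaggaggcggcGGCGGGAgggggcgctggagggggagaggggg

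The E2f7 window held TTTCCCGC on the reverse strand, beginning at position -198 from its start site. In Mybl2 a GGCGGGA began at -13, and in Rbl1 a TTTCGCGC began at -18, the rarest of the motifs searched (0.323% of all windows). The upstream E2f2 window held TTTGGCGC at 39, and the downstream one held no E2F motif and a CHR match at -31. In GENCODE M21 the nearest transcript start lies 120 bases downstream of the upstream E2f2 start site, so the TTTGGCGC lies before it. For Mybl2 this distance is 52 bases. In the upstream E2f3 window a CHR match at -23 lay beside an overlapping pair of E2F matches, TTTCCCGC in reverse at -11 and GGCGGGA at -12, while the downstream window held GGCGGGA at -78 in reverse and at 18. No E2F motif was found in the windows of E2f1 and E2f8. The start site of the E2f1 window lies 294 bases downstream of the nearest transcript start of GENCODE M21. This whole window lies downstream of both E2f1 starts there, so its lack of an E2F motif describes no sequence before them. Such matches describe the letters of these windows, not binding.

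In 15 of the 16 libraries depth was 31.8 to 36.9 M (mega) estimated counts, and WT DMSO replicate 1 had 20.2 M. That WT library also stood apart on the second principal component, which held 23.6% of the variance, while the first, with 43.2%, separated replicates 1 and 4 from 2 and 3 in each group. Chd1, the targeted gene, was at 60.8 to 77.4 CPM (counts scaled to a common library size) in the 12 KO libraries and 57.8 to 73.0 CPM in the WT DMSO libraries, so RNA level gives no check of the genotype labels. Of 10 neural progenitor markers 9 averaged above 10 CPM in every group and Hes5 averaged under 1 CPM. Their summed level was 6740 to 8760 CPM in KO DHT+ENZ, 7010 to 8660 CPM in KO DHT, 6970 to 8820 CPM in KO DMSO and 6840 to 9610 CPM in WT DMSO. None of the 10 was called in any comparison by edgeR, and their median log2 fold change was -0.03 in KO DHT+ENZ over KO DHT and -0.002 in KO DHT+ENZ over KO DMSO. Microglial markers summed to at most 5.3 CPM and endothelial markers to at most 10.3 CPM in any library. Summed markers of neurons ran from 837 to 1360 CPM over all libraries, those of astrocytes from 93.9 to 315 CPM and those of pericytes, meninges and fibroblasts from 17.4 to 41.7 CPM. Map2 made up most of the neuron sum (group means 962 to 1120 CPM). Tubb3 averaged 40.9 to 46.2 CPM, Dcx, Rbfox3, Snap25 and Syt1 1.29 to 3.43 CPM, and the other 2 neuron markers under 1 CPM. In the astrocyte sum Aldh1l1 held the most (121 to 162 CPM), and Gfap averaged 1.28 to 1.65 CPM. Markers of oligodendrocyte precursors summed to 758 to 1060 CPM in KO DHT+ENZ, 701 to 1040 CPM in KO DHT, 800 to 1080 CPM in KO DMSO and 745 to 931 CPM in WT DMSO. The 3 of these that were tested had median log2 fold changes, in the model with the replicate number, of -0.359 over KO DHT and -0.271 over KO DMSO, where the 9 genes had -0.383 and -0.43. Over KO DHT the values were 0.115 for Olig2, which made up most of the sum, -0.359 for Cspg4 and -0.364 for Pdgfra (adjusted p from 0.215 to 0.577 by edgeR), and over KO DMSO they were -0.052, -0.271 and -0.607 (0.316 to 0.847). None of these markers was called, and their part in the results was not tested.

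On the TPM scale, which corrects for transcript length and allows genes to be set beside each other, Foxm1 had the highest level of the 9 genes in all 4 groups. It averaged 25.5 ± 4.40 TPM in KO DHT+ENZ, 37.3 ± 3.58 in KO DHT, 36.1 ± 8.45 in KO DMSO and 37.1 ± 10.0 in WT DMSO (SD, n = 4 each). Part of this came from short transcripts with few counts, such as one of 598 bases with 0.92% of Foxm1 counts. The main Foxm1 transcript, with 95.8% of counts, averaged 16.6 TPM in KO DHT+ENZ, where all E2f3 RNA averaged 16.9. It averaged 24.6, 24.3 and 25.2 TPM in KO DHT, KO DMSO and WT DMSO. The first place of Foxm1 in KO DHT+ENZ therefore rests on the short transcripts. Mybl2, Rbl1, E2f1 and E2f3 followed at 14.2 to 16.9 TPM in KO DHT+ENZ, 18.0 to 23.5 in KO DHT, 17.2 to 22.9 in KO DMSO and 17.9 to 24.9 in WT DMSO, as group means. Neighbours among these 4 overlapped in all groups except Mybl2 and Rbl1 in KO DMSO. Next came E2f8 at 10.1 ± 0.650 TPM in KO DHT+ENZ and 13.9 ± 2.44, 14.2 ± 0.592 and 14.0 ± 2.07 TPM in KO DHT, KO DMSO and WT DMSO, then Lin9, E2f7 and E2f2. E2f7 was the lowest of all in KO DHT+ENZ, at 5.56 ± 0.907 TPM, and in KO DMSO, at 7.81 ± 0.657, overlapping E2f2 at 5.88 ± 0.986 and 7.84 ± 1.37. In KO DHT and WT DMSO E2f2 was the lowest, at 7.07 ± 0.675 and 7.37 ± 1.41 TPM, where E2f7 was at 9.43 ± 1.21 and 10.1 ± 2.98, and these ranges overlapped in WT DMSO. A transcript of 426 bases with 0.96% of E2f2 counts gave 1.975 TPM of the E2f2 mean in KO DHT+ENZ. The main transcripts of E2f7 and E2f2 alone averaged 3.787 and 3.905 TPM in KO DHT+ENZ and 5.815 and 5.847 in KO DMSO. They averaged 6.048 and 5.633 TPM in KO DHT and 5.749 and 4.953 in WT DMSO, which is the same order.

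**Figure D1:**
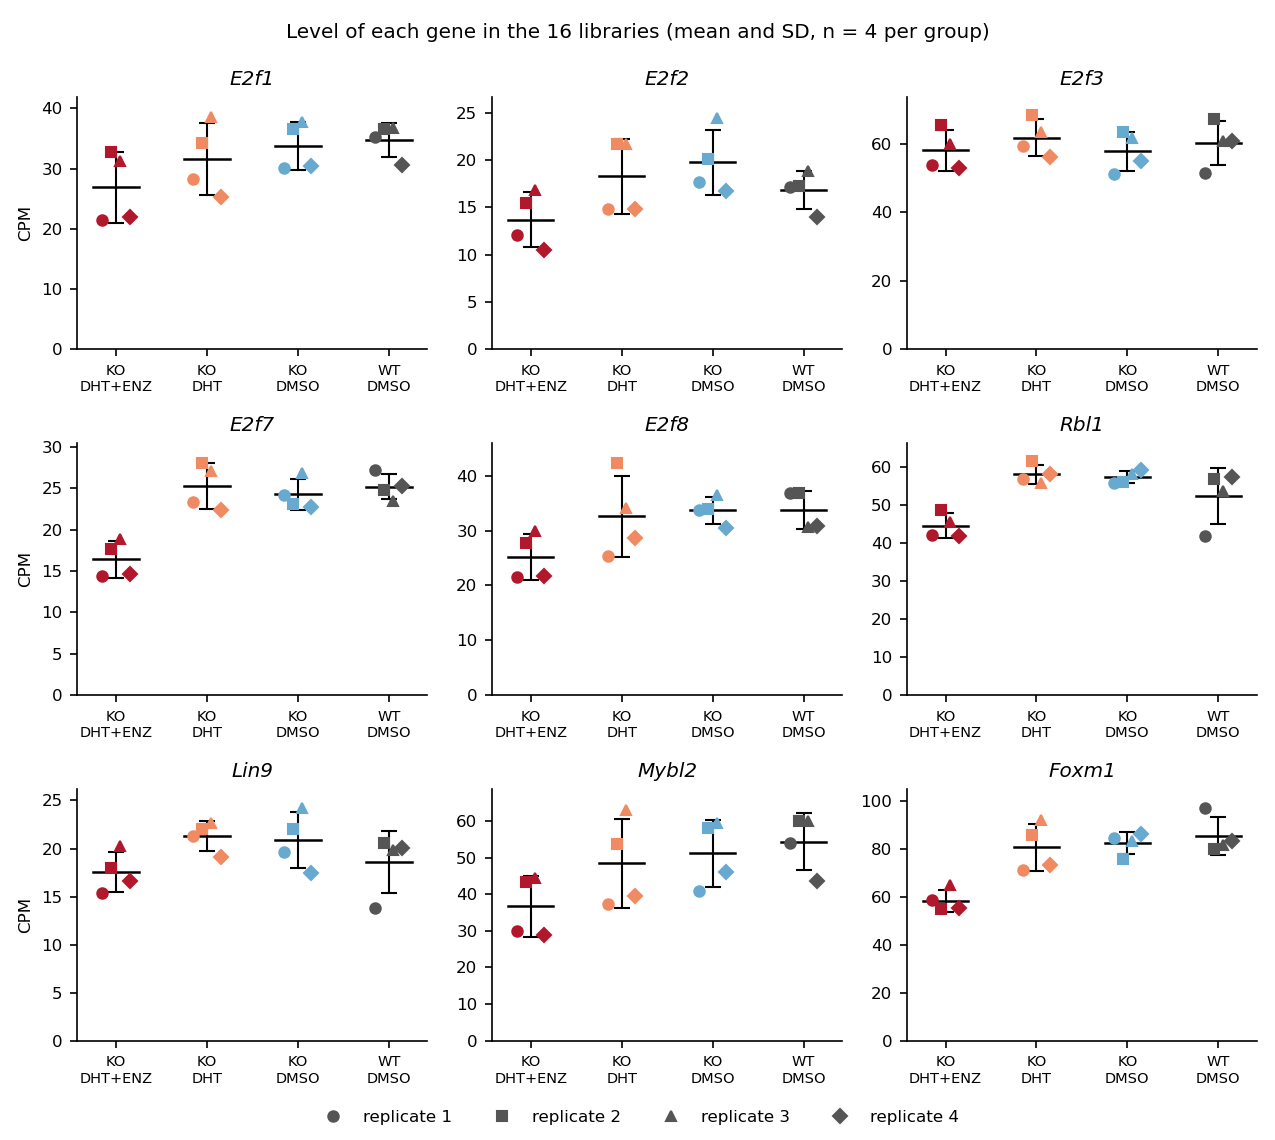
CPM (vertical axis, starting at 0) of each of the 9 genes in the 16 libraries, with groups along the horizontal axis; symbols are the 4 replicates, bars the mean and SD. E2f7, Rbl1 and Foxm1 in KO DHT+ENZ lie below all KO DHT and all KO DMSO libraries, while the ranges of E2f3 overlap in all 4 groups.

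Setting KO DHT+ENZ against KO DHT asks what the antagonist changes in androgen-treated knockout cells, and setting it against KO DMSO asks how cells given both agents differ from knockout cells given neither. All 9 genes had a lower mean in KO DHT+ENZ than in KO DHT, and all but E2f3 in KO DHT+ENZ than in KO DMSO. These comparisons share the KO DHT+ENZ libraries, so they are not independent of each other. The planned edgeR quasi-likelihood model without the replicate number called E2f7 lower against KO DHT (1 of 9 genes, where 0.189% of all genes were called lower). It called E2f7 and Foxm1 lower against KO DMSO (2 of 9, where 0.2% of all genes were). The replicate numbers pair the cultures by the criterion used, and with the number as a block 5 of 9 fell against KO DHT (E2f2, E2f7, Rbl1, Mybl2, Foxm1; 1.92% of all genes) and 6 of 9 against KO DMSO (the same 5 and E2f1; 2.09% of all genes). None of the 9 was called higher in KO DHT+ENZ, where 0.0766% and 0.053% of all genes were without the block (against KO DHT and KO DMSO) and 1.57% and 0.854% with it. Over the 9 genes the median log2 fold change was -0.38 against KO DHT and -0.42 against KO DMSO without the block, where the median of all genes tested was -0.002 and 0.006. All 9 were lower than KO DHT in each of the 4 same-numbered pairs, as were 14.2% of all genes, and 8 were lower than KO DMSO in each pair, as were 15.6%. In bulk RNA, fewer cells of a kind and less RNA per cell cannot be told apart.

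E2f7, the gene of an atypical repressor, had the largest fold change of the 9 in both comparisons. Its level was 14.5, 17.7, 18.8 and 14.7 CPM in KO DHT+ENZ replicates 1 to 4, against 23.4, 28.1, 27.1 and 22.3 CPM in KO DHT and 24.3, 23.2, 26.9 and 22.8 CPM in KO DMSO. Every KO DHT+ENZ library lay below every KO DHT and KO DMSO library. The log2 fold change over KO DHT was -0.62 (SE 0.11; adjusted p = 0.0233 by edgeR without the block and 0.00229 with it), and over KO DMSO it was -0.57 (SE 0.11; adjusted p = 0.0467 without and 0.00269 with the block). Leaving out single libraries mattered: without the block, the call against KO DHT held in 9 of 16 such fits and was lost without KO DHT+ENZ replicate 1, 2 or 4, KO DHT replicate 1, 2 or 3, or KO DMSO replicate 1 (highest adjusted p 0.131 by edgeR), and the call against KO DMSO held in 2 of 16. With the block it was lost in both comparisons only when replicate 4 was left out of every group (adjusted p = 0.0528 and 0.0777 by edgeR). The log2 fold change over KO DHT stayed between -0.69 and -0.56 in all 33 settings run.

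E2f8, its close relative, was at 21.5, 27.7, 29.9 and 21.7 CPM in KO DHT+ENZ, against 25.4, 42.3, 34.2 and 28.7 CPM in KO DHT and 33.7, 33.9, 36.6 and 30.5 CPM in KO DMSO. The KO DHT+ENZ libraries lay below all KO DMSO libraries, as did 3.18% of all genes, and overlapped those of KO DHT. Its log2 fold change was -0.37 (SE 0.11) over KO DHT and -0.43 (SE 0.11) over KO DMSO in the blocked model, and it did not pass there (adjusted p = 0.1 and 0.0574 by edgeR) nor without the block (0.56 and 0.512). A blocked fit without WT DMSO replicate 1, the shallow library, did call it in both comparisons, as it did 8.59% and 7.24% of all genes. A test of E2f7 against E2f8 was not run.

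Among the activators, E2f2 was at 12.1, 15.4, 16.8 and 10.5 CPM in KO DHT+ENZ, against 14.8, 21.7, 21.7 and 14.9 CPM in KO DHT and 17.7, 20.1, 24.4 and 16.7 CPM in KO DMSO. The groups overlapped, while within each replicate number the KO DHT+ENZ library was the lowest of the 3 KO libraries. Its log2 fold change was -0.42 over KO DHT and -0.54 over KO DMSO (SE 0.085 each, block), with adjusted p = 0.0143 and 0.00256 by edgeR, against 0.625 and 0.442 without the block. The blocked call against KO DHT was lost without replicate 2, 3 or 4, and that against KO DMSO without replicate 4. E2f1 was at 21.5, 32.7, 31.3 and 22.0 CPM in KO DHT+ENZ, against 28.2, 34.3, 38.6 and 25.3 CPM in KO DHT and 30.2, 36.6, 37.7 and 30.4 CPM in KO DMSO. It overlapped both groups and passed only against KO DMSO with the block (log2 fold change -0.34, SE 0.08; adjusted p = 0.04 by edgeR), a call lost without any one replicate number. Against KO DHT its blocked log2 fold change was -0.24 (95% interval -0.42 to -0.06; adjusted p = 0.156 by edgeR).

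E2f3 had the smallest fold change of the 9 in both comparisons. It was at 53.9, 65.6, 60.1 and 53.0 CPM in KO DHT+ENZ. Its level was 59.4, 68.6, 63.5 and 56.2 CPM in KO DHT and 51.4, 63.5, 61.9 and 55.1 CPM in KO DMSO. All groups overlapped in CPM. In TPM they did not: KO DHT+ENZ (16.04 to 17.67) and KO DMSO (16.54 to 17.73) both lay below KO DHT (18.03 to 20.31). KO DHT+ENZ and KO DMSO overlapped each other there. The share of all genes separated in TPM was not computed, so this is a description. The blocked log2 fold change of E2f3 was -0.09 over KO DHT (95% interval -0.221 to 0.036) and 0.004 over KO DMSO (-0.125 to 0.133), with adjusted p = 0.515 and 0.99 by edgeR. Set beside E2f7, the gene at the other end of this order, on the log2 CPM scale E2f7 minus E2f3 was -1.83 ± 0.105 in KO DHT+ENZ, -1.30 ± 0.052 in KO DHT and -1.25 ± 0.155 in KO DMSO (SD, n = 4 each). This pair was picked from these same values, so the difference is a description.

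**Figure D2:**
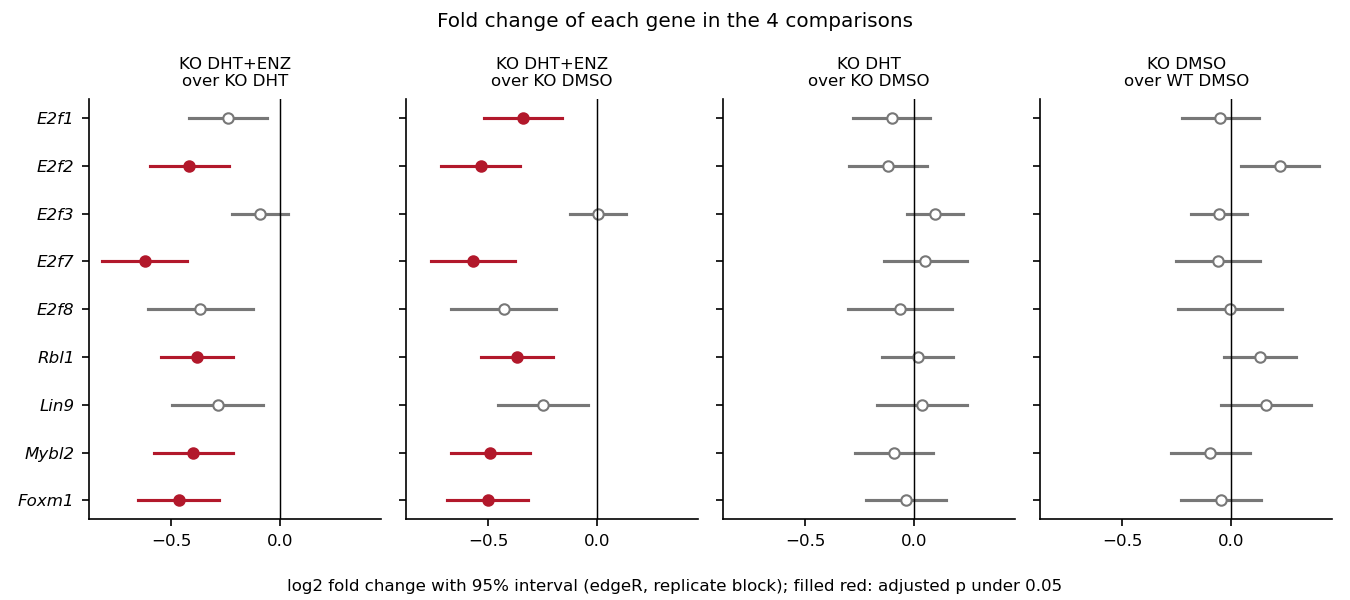
Log2 fold change of the 9 genes (horizontal axis, points) with 95% intervals (lines) from the edgeR model with the replicate block, 1 panel for each comparison. Filled red points passed an adjusted p of 0.05; 5 do so in KO DHT+ENZ over KO DHT, 6 in KO DHT+ENZ over KO DMSO and none in the other 2 panels.

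Rbl1 encodes p107, a pocket protein that binds repressor E2Fs and is itself known as an E2F target. It was at 42.1, 48.8, 45.7 and 41.9 CPM in KO DHT+ENZ, against 57.1, 61.6, 55.8 and 58.2 CPM in KO DHT and 55.9, 56.3, 58.2 and 59.4 CPM in KO DMSO. No KO DHT+ENZ library reached any library of the other KO groups. The log2 fold change was -0.38 over KO DHT and -0.37 over KO DMSO (SE 0.08 each, block), with adjusted p = 0.0138 and 0.0177 by edgeR, against 0.133 and 0.193 without the block. Both blocked calls were lost when replicate 2, 3 or 4 was left out.

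Lin9, a subunit of the MuvB core, was at 15.4, 18.0, 20.2 and 16.6 CPM in KO DHT+ENZ, against 21.3, 22.0, 22.7 and 19.2 CPM in KO DHT and 19.6, 22.0, 24.2 and 17.5 CPM in KO DMSO. These ranges overlapped. Its blocked log2 fold change was -0.29 over KO DHT and -0.25 over KO DMSO (SE 0.10 each) and did not pass (adjusted p = 0.14 and 0.248 by edgeR).

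Mybl2 encodes B-MYB, which binds MuvB from S phase on. It was at 30.1, 43.3, 44.4 and 28.8 CPM in KO DHT+ENZ, against 37.4, 53.7, 63.1 and 39.6 CPM in KO DHT and 40.9, 58.1, 59.4 and 46.0 CPM in KO DMSO. Replicates 1 and 4 were low and replicates 2 and 3 high in all 3 groups, so the groups overlapped although every pair had its lowest value in KO DHT+ENZ. The log2 fold change was -0.40 over KO DHT and -0.49 over KO DMSO (SE 0.085 each, block; adjusted p = 0.0187 and 0.00476 by edgeR), and without the block it did not pass (0.716 and 0.663). The call against KO DMSO was lost without replicate 4, and that against KO DHT without replicate 2, 3 or 4.

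Foxm1, the forkhead factor that drives late G2 and mitotic genes with MuvB and B-MYB, was at 58.8, 55.0, 64.9 and 55.4 CPM in KO DHT+ENZ. Its level was 71.5, 85.8, 92.1 and 73.6 CPM in KO DHT and 84.9, 76.1, 83.6 and 86.4 CPM in KO DMSO. The lowest value of either of these groups was above the highest of KO DHT+ENZ; such separation was seen for 3 of the 9 genes against KO DHT (E2f7, Rbl1, Foxm1) and 4 against KO DMSO (these and E2f8), where 2.97% and 3.18% of all genes were separated in this direction. Against KO DMSO the log2 fold change was -0.50 (SE 0.10; adjusted p = 0.0467 by edgeR without the block and 0.0048 with it), and against KO DHT it was -0.465 (SE 0.10; 0.0611 without and 0.00927 with the block). Without the block the first of these calls held in 3 of 16 fits that left out a library, namely those without KO DHT+ENZ replicate 3, KO DHT replicate 3 or WT DMSO replicate 1. With the block it was lost without replicate 4, and the call against KO DHT without replicate 2, 3 or 4.

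Since replicates 1 and 4 were set apart from 2 and 3, the levels and the fold changes were also taken within each set. Averaged over the 4 groups, replicates 2 and 3 exceeded replicates 1 and 4 by 0.48 on the log2 CPM scale in Mybl2, 0.41 in E2f2, 0.36 in E2f1, 0.26 in E2f8, 0.25 in Lin9, 0.21 in E2f3, 0.14 in E2f7, 0.09 in Rbl1 and 0.03 in Foxm1. Mybl2, E2f2 and E2f1 varied most between these sets, while E2f7, Rbl1 and Foxm1, whose groups separated without pairing, varied least. In replicates 2 and 3 alone the blocked log2 fold change over KO DHT was -0.61 for E2f7, -0.58 for Foxm1, -0.44 for E2f2 and -0.42 for Mybl2, and these 4 genes passed (adjusted p from 0.00446 to 0.0297 by edgeR), as did 4.03% of all genes. In replicates 1 and 4 alone the same fold changes were -0.65, -0.35, -0.40 and -0.39, and no gene of the 9 passed (adjusted p from 0.44 for E2f7 upward by edgeR), nor did any of all genes tested. What sets the replicates apart is not given in the labels, and its part in these results was not tested.

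No gene of the 9 was called in KO DHT over KO DMSO, the comparison of the androgen with its solvent in knockout cells. In edgeR 0 of all genes tested (0%) passed with or without the block. DESeq2 called 0 of the 9 in either model, and 0% of all genes without and 0.00589% (1 gene) with the block. At an unadjusted p under 0.05 edgeR reached 0 of the 9 in either model, against 193 of all genes without the block and 1358 with it. Without the block the log2 fold changes ran from -0.11 for E2f2 (95% interval -0.483 to 0.259) to 0.095 for E2f3 (-0.125 to 0.314), with Foxm1 at -0.035 (-0.239 to 0.169) and E2f7 at 0.055 (-0.173 to 0.283).

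The knockout set against its control, KO DMSO over WT DMSO, gave 0 calls as well: edgeR called 0 of the 9 genes and 0 of all genes (0%) with or without the block. DESeq2 called 0 of the 9 in either model, and 0% of all genes without and 0.0858% (14 genes) with the block. At an unadjusted p under 0.05 edgeR reached 508 of all genes and 0 of the 9 without the block, and 1329 and 1 with it. That 1 gene was E2f2, at 17.7, 20.1, 24.4 and 16.7 CPM in KO DMSO, against 17.2, 17.3, 18.9 and 14.0 CPM in WT DMSO. The groups overlapped, and its blocked log2 fold change was 0.22 (95% interval 0.044 to 0.404; adjusted p = 0.582 by edgeR). The 95% intervals of the other 8 genes without the block lay between -0.485, for Mybl2, and 0.446, for Lin9.

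Levels in KO DMSO and WT DMSO follow for the genes other than E2f2. E2f7 was at 24.3, 23.2, 26.9 and 22.8 CPM in KO DMSO, against 27.3, 24.8, 23.5 and 25.3 CPM in WT DMSO. Foxm1 was at 84.9, 76.1, 83.6 and 86.4 CPM in KO DMSO, against 97.1, 80.0, 81.7 and 83.3 CPM in WT DMSO. Mybl2 was at 40.9, 58.1, 59.4 and 46.0 CPM in KO DMSO, against 53.9, 59.8, 59.9 and 43.5 CPM in WT DMSO. In each of these 3 genes KO DMSO and WT DMSO covered overlapping ranges. E2f1 averaged 33.7 ± 4.01 CPM in KO DMSO and 34.8 ± 2.87 CPM in WT DMSO, E2f3 58.0 ± 5.71 and 60.2 ± 6.48 CPM, and E2f8 33.7 ± 2.47 and 33.8 ± 3.52 CPM in the same order (SD, n = 4 each). Rbl1 was at 55.9, 56.3, 58.2 and 59.4 CPM in KO DMSO, against 41.8, 57.0, 53.8 and 57.5 CPM in WT DMSO. Lin9 was at 19.6, 22.0, 24.2 and 17.5 CPM in KO DMSO, against 13.8, 20.6, 19.9 and 20.1 CPM in WT DMSO. In both, WT DMSO replicate 1, the shallow library, was the lowest of its group, and without it the log2 fold changes of KO DMSO over WT DMSO were 0.04 for Rbl1 and 0.05 for Lin9, against 0.13 and 0.16 with it.

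E2f3 makes RNA from separate starts, known to give the E2F3a protein from the upstream start and E2F3b from the downstream start. Kallisto's split of reads between transcripts of 1 gene is an estimate, so these values are less certain than those of whole genes. RNA from the upstream start was at 5.41, 4.43, 6.14 and 5.05 TPM in KO DHT+ENZ replicates 1 to 4, against 6.63, 8.56, 8.73 and 7.45 TPM in KO DHT and 4.59, 7.04, 6.12 and 7.46 TPM in KO DMSO. The KO DHT+ENZ libraries lay below all KO DHT libraries and overlapped those of KO DMSO. The share of all transcripts separated in this way was not computed, so this separation is a description. RNA from the downstream start averaged 11.6 ± 1.37 TPM in KO DHT+ENZ, 11.2 ± 1.43 in KO DHT, 10.9 ± 0.874 in KO DMSO and 11.5 ± 1.58 in WT DMSO (SD, n = 4 each). The upstream start accounted for 33.7 ± 5.65% of E2f3 counts in KO DHT+ENZ, 43.9 ± 5.93% in KO DHT, 39.1 ± 6.83% in KO DMSO and 38.2 ± 5.68% in WT DMSO. This share was lower in KO DHT+ENZ than in KO DHT in 4 of 4 pairs, with p = 0.0571 in a two-sided exact permutation test (smallest possible 0.0286; 0.152 after Benjamini-Hochberg adjustment over 8 tests, which counts those of E2f7 minus E2f3 in the 4 comparisons), and in 2 of 4 pairs against KO DMSO (p = 0.286, exact permutation test), so neither difference passed.

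**Figure D3:**
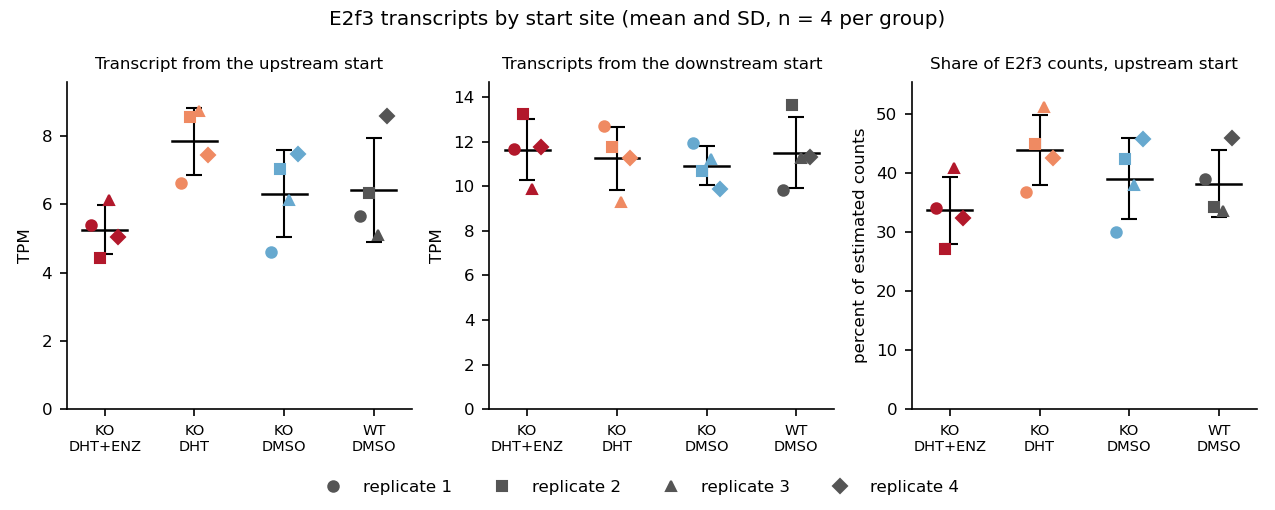
TPM of E2f3 RNA from the upstream start (left) and the downstream start (middle), and the upstream share of E2f3 counts in percent (right), by group; symbols are replicates, bars the mean and SD. The upstream RNA in KO DHT+ENZ, 4.43 to 6.14 TPM, lies below KO DHT, 6.63 to 8.73 TPM, while the downstream RNA covers like ranges in all groups. The share of all transcripts separated in this way was not computed.

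E2f8 also has a pair of abundant transcripts. RNA from its downstream start averaged 3.80 ± 0.444 TPM in KO DHT+ENZ, 6.44 ± 0.898 in KO DHT, 5.74 ± 0.673 in KO DMSO and 5.60 ± 0.909 in WT DMSO. Its highest KO DHT+ENZ value, 4.32 TPM, was below the lowest of KO DHT, 5.55 TPM, and of KO DMSO, 4.90 TPM. RNA from the upstream start, that of the RefSeq window, averaged 6.08 ± 1.23 TPM in KO DHT+ENZ, 7.24 ± 2.52 in KO DHT and 7.90 ± 1.30 in KO DMSO (SD, n = 4 each), with overlapping ranges. No test of the shift between these transcripts was run, and the share of all transcripts separated as the downstream one was not computed.

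Genes whose pattern over the 16 libraries was most like that of 4 of the factors were named by the root-mean-square difference of centred log2 CPM, among 9722 genes of at least 10 CPM on average. The libraries share their groups and their replicate numbers, so this likeness is a description. Nearest to Foxm1 were Mns1 (0.075), the spindle checkpoint kinase gene Bub1b (0.084) and Fanca (0.086), where the median over all candidates was 0.308. Nearest to Mybl2 were Uhrf1 (0.080), Mcm10 (0.090) and Mcm7 (0.092), which act in the copying of DNA methylation or of DNA, with a median of 0.355. For E2f1 they were Tead2 (0.071), the DNA polymerase alpha subunit gene Pola2 (0.074) and Ppil1 (0.074), and for E2f8 Pole (0.098), Dnmt1 (0.099) and Kcnab2 (0.123), with medians of 0.278 and 0.299.

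Partners of the factors were called in part. With the block edgeR called 1.92% of all genes lower against KO DHT and 2.09% against KO DMSO. Of 7 RB family, E2F and DP genes (Rb1, Rbl2, E2f4, E2f5, E2f6, Tfdp1, Tfdp2), 0 were called without the block in edgeR. With the block, Tfdp2 fell against KO DHT (log2 fold change -0.305, SE 0.08; adjusted p = 0.046 by edgeR) and Tfdp1 against KO DMSO (-0.28, SE 0.06; adjusted p = 0.0116). E2f4, a repressor E2F of the DREAM complex, averaged 45.4 ± 1.44 CPM in KO DHT+ENZ, 43.5 ± 3.05 in KO DHT and 47.9 ± 1.60 in KO DMSO and was not called. Of 6 genes for MuvB subunits, MYB relatives and the DREAM kinase, edgeR with the block called 0 against KO DHT and 1 against KO DMSO, Myb, at 4.00 ± 0.965 CPM in KO DHT+ENZ and 5.77 ± 0.575 CPM in KO DMSO (-0.55, SE 0.12; adjusted p = 0.0254). The median log2 fold changes of these lists over KO DHT were -0.08 each with the block.

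Among 9 genes for RB kinases and their cyclins, the blocked model called Ccne1 (cyclin E1) and Ccna2 (cyclin A2) lower in both comparisons and Ccnd2 (cyclin D2) higher against KO DMSO. Of all genes it called 1.92% lower and 1.57% higher against KO DHT, and 2.09% lower and 0.854% higher against KO DMSO. Ccna2 averaged 135 ± 17.9 CPM in KO DHT+ENZ, 190 ± 18.7 in KO DHT and 195 ± 23.0 in KO DMSO, with log2 fold changes of -0.49 and -0.53. Ccnd2 averaged 2070 ± 151 CPM in KO DHT+ENZ and 1690 ± 218 CPM in KO DMSO (log2 fold change 0.295, SE 0.06; adjusted p = 0.0188 by edgeR), and against KO DHT it did not pass (0.10; adjusted p = 0.47). Among 7 CDK inhibitor genes Cdkn2c (p18) fell in both comparisons (-0.40 and -0.49, block) and Cdkn2d (p19) against KO DMSO (-0.36). Cdkn2b (p15) rose in both (0.325 and 0.31; adjusted p = 0.0192 and 0.0251 by edgeR) and Cdkn2a against KO DHT (0.26; adjusted p = 0.0472), and neither Cdkn1a (p21) nor Cdkn1b (p27) was called. None of these genes was called without the block.

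Among 7 genes for ubiquitin ligases and their inhibitor EMI1 that act on the stability of E2F, B-MYB or FOXM1 proteins or on the ligases themselves, edgeR with the block called 3 lower against KO DHT and 5 against KO DMSO, and 0 without it. Of all genes, 1.92% and 2.09% were called lower with the block. Ccnf (cyclin F, the ligase subunit known to target activator E2Fs in human cells) averaged 57.3 ± 11.2 CPM in KO DHT+ENZ, 82.6 ± 17.7 in KO DHT and 89.5 ± 12.6 in KO DMSO. Its log2 fold changes were -0.52 and -0.655 (SE 0.09 each). Cdc20 fell by 0.55 and 0.78 and Fbxo5, the gene of EMI1, by 0.54 and 0.59 on the log2 scale.

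Genes known as targets of the factors were lower in KO DHT+ENZ as a rule. Of all genes, edgeR called 1.92% and 2.09% lower with the block (against KO DHT and KO DMSO) and 0.189% and 0.2% without it. Of 34 genes of G1/S and DNA replication known as E2F targets, 19 fell against KO DHT and 28 against KO DMSO with the block and 1 and 0 without it, and all 34 had negative log2 fold changes in both (median -0.348 and -0.436, block). Rrm2, a ribonucleotide reductase subunit gene, averaged 189 ± 44.8 CPM in KO DHT+ENZ, 242 ± 46.6 in KO DHT and 266 ± 47.7 in KO DMSO (log2 fold changes -0.365 and -0.505, block). Of 30 G2/M genes known as MuvB, B-MYB and FOXM1 targets, 28 fell against KO DHT and 29 against KO DMSO with the block and 7 and 12 without it, and all 30 had negative log2 fold changes (median -0.513 and -0.566, block). Tpx2, a spindle assembly gene, averaged 130 ± 14.5 CPM in KO DHT+ENZ, 187 ± 23.2 in KO DHT and 199 ± 19.6 in KO DMSO (-0.52 and -0.61; adjusted p = 0.000421 and 9.51e-05 by edgeR with the block). Cdc20 is in this list too, and the medians of all genes tested were -0.005 and 0.006. In KO DHT over KO DMSO and in KO DMSO over WT DMSO no gene of these lists was called in either edgeR model. With the block, 28 of the 34 and 22 of the 30 had negative log2 fold changes in KO DHT over KO DMSO. Their medians were -0.091 and -0.082, where that of all genes was -0.002. In KO DMSO over WT DMSO 7 of the 34 and 8 of the 30 were negative (median 0.058 and 0.035, all genes -0.001).

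**Figure D4:**
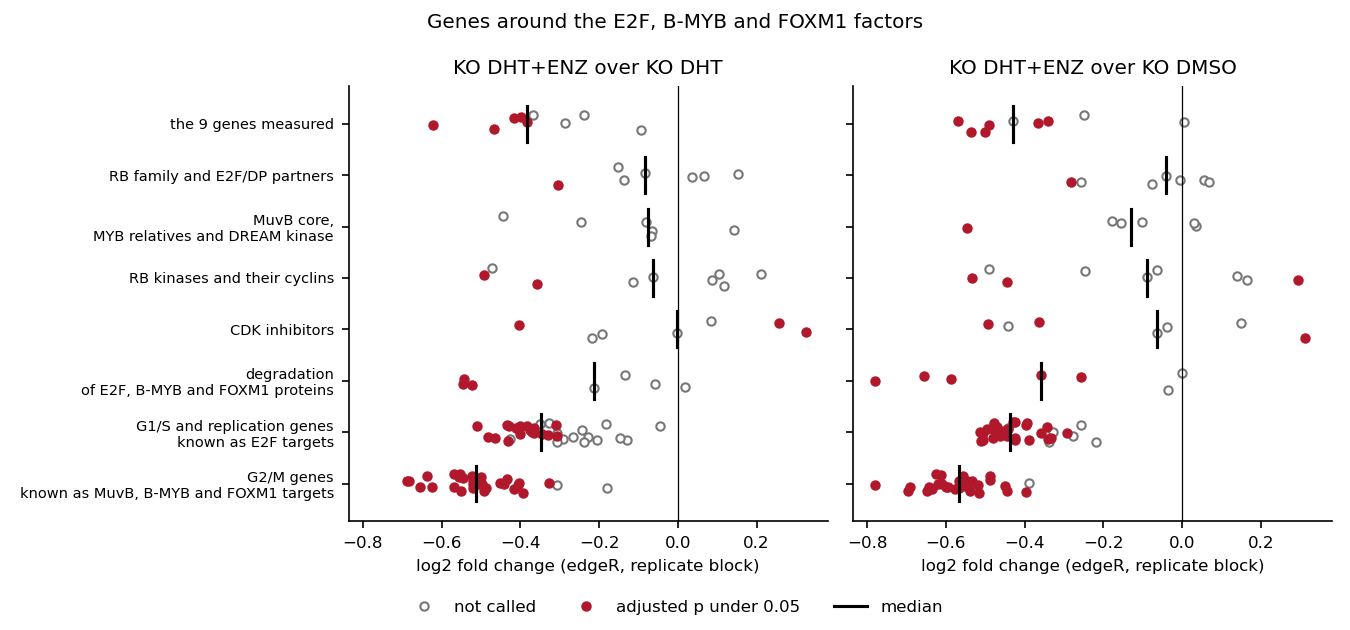
Log2 fold change from the edgeR model with the replicate block (horizontal axis) of the 9 genes and of each related list (rows), in KO DHT+ENZ over KO DHT and over KO DMSO. Points are genes, red where the adjusted p is under 0.05, and black bars are medians; the G2/M row has 28 and 29 of 30 genes called lower, and the RB family row 1 of 7 in each panel. Of all genes, 1.92% and 2.09% were called lower.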

How the data were processed

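Paired reads of polyA RNA (integrity number over 8), per the labels' protocols, were quantified with kallisto against GRCm39, per the submitters' processing notes; versions are not given in the sources used here. Each deposited file holds estimated counts (expected counts, with no scaling between libraries) and TPM for 146190 transcripts, per the file headers. Transcript identifiers of 135007 were matched to GENCODE M21 genes, used for names only, holding 98.85% to 99.12% of the counts.

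Sums of these counts over each gene's transcripts were rounded and fitted in edgeR 4.0.16 (R 4.3.3; quasi-likelihood, TMM, filterByExpr, all 16 libraries). Calls needed a Benjamini-Hochberg adjusted p under 0.05 over 16971 genes and no minimum fold. CPM uses the same scaling. The standard error (SE) is the absolute log2 fold change over the square root of F. The deposited TPM values served for levels between genes and transcripts only. DESeq2 1.42.0, limma 3.58.1, Python 3.11.15 and scipy 1.17.1 were also used, and the scripts were tested on simulated counts.

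Replicate numbers come from the sample titles. Over 9747 genes of at least 10 CPM, libraries of the same number deviated together in every comparison (r = 0.155 to 0.791, above the minimum of 0.1), so the blocked model is given beside the planned one; for 10 of 16 libraries the most similar library of the other groups bore the same number. The block lowered the common coefficient of biological variation to 0.122, against 0.212 in the planned model.

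Alternatives were DESeq2, other scalings, no filter, effective lengths, a length trend, only the groups compared, and libraries left out. The 10 genes are always named; from a list over 9 genes only its 3 smallest p-values against KO DMSO in the blocked model may be named, and any of a shorter list (the marker Hes5 was named after its level was seen). For Foxm1, Mybl2, E2f1 and E2f8 the 3 nearest genes are named. The genes and lists were chosen with earlier results of these data known. Promoter sequences and starts are RefSeq's, on GRCm38.p6, apart from the files' build.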

Additional observations from a re-analysis of the deposited data

Results flagged for a closer look

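Among the 36 sets of 4 libraries (9 genes in 4 groups), 1 held a library far from the other 3 by Dixon's test at its 95% critical value; chance gives about 1 set in 20. Lin9 was at 13.8 CPM in WT DMSO replicate 1 and at 19.9 to 20.6 CPM in the other WT DMSO libraries (ratio 0.889). This library has the lowest depth, 20.2 M estimated counts. Their part in the Lin9 value was not tested.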

How the results depend on the processing

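The count of called genes among the 9 depended on the model. Beside each count stands the share of all genes that the same fit called in either direction. In KO DHT+ENZ over KO DHT the planned fit called 1 (0.265%), the replicate block 5 (3.48%), DESeq2 3 (1.7%) and DESeq2 with the block 6 (8.2%), upper quartile scaling 3 (0.418%), no filter on low counts 0 (0.0507%), effective length offsets 0 (0.0707%), a length trend removed with the block 5 (3.5%), only the 2 groups compared 0 (0.301%) and these with the block 8 (7.23%). In KO DHT+ENZ over KO DMSO the planned fit called 2 (0.253%), the replicate block 6 (2.94%), DESeq2 3 (1.51%) and with the block 7 (5.99%), upper quartile scaling 2 (0.354%), no filter 0 (0.0269%), effective length offsets 0 (0.0589%), the length trend with the block 5 (3.62%), only the 2 groups 0 (0%) and these with the block 8 (12.1%). Leaving out libraries without the block gave 0 to 3 calls in both (0.0115% to 0.673% and 0% to 0.569%), and leaving out a replicate number with the block gave 0 to 6 and 0 to 5 (0.286% to 7.11% and 0.351% to 3.71%), with 0 without replicate 4. Fits added after the data were seen, all with the block, gave 8 (8.59%) and 7 (7.24%) calls without WT DMSO replicate 1, 4 (4.03%) and 4 (1.71%) in replicates 2 and 3 only, and 0 and 0 (0% each) in replicates 1 and 4 only. The cause of these differences was not tested, except that fits with fewer libraries have fewer samples. The other comparisons gave 0 of the 9 in every setting. Over the 33 settings all 9 genes had negative log2 fold changes against KO DHT, and all but E2f3 against KO DMSO; E2f3 ran from -0.06 to 0.05 there. Among the fold changes of single genes 1024 alternatives kept their side of the threshold, 64 of them with a change of sign of an uncalled value by less than its standard error (25 in KO DMSO over WT DMSO, 23 in KO DHT over KO DMSO and 16, all of E2f3, in KO DHT+ENZ over KO DMSO). A further 75 passed it newly, 49 lost it, 4 that were never called changed sign by more than that error, and none of the called ones changed sign. Depth limits the precision most in WT DMSO replicate 1, and low counts of Lin9 (298 there) limit it further.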
